A study of Mus musculus with 9 samples.

Results

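The B cells of the mouse liver were 1066 of the 8562 cells in the deposited tables. A cell was taken as a B cell when it had at least 200 detected genes, at least 3 UMIs (unique molecular identifiers, each marking a separate captured transcript) summed over Cd79a, Cd79b and Ms4a1 with at least 1 of them from Cd79a, no UMI of Cd3e, Cd3d or Siglech, and fewer than 5 UMIs of C1qa, C1qb and C1qc together. These 9 genes chose the cells, so their levels are not read as results. The 6 of them that passed the filter on low counts stayed in the fits over all genes.

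B cells recognise antigen through a surface immunoglobulin that signals through CD79A and CD79B, and they present peptides of that antigen to helper T cells on MHC class II. CD20, the product of Ms4a1, marks them from the pre-B stage until they become plasma cells. In the liver they are found in the sinusoids and portal tracts beside T cells, NK cells and Kupffer cells.

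The libraries came from collagenase-treated whole livers of C57BL/6 mice that carried ROSA26-rtTA-IRES-EGFP, the transactivator that doxycycline switches on, either alone (WT) or with tetYAP, a doxycycline-inducible YAP, the transcriptional coactivator restrained by Hippo signalling. By the methods of the study the YAP was the S127A form and an albumin-driven Cre directed the transactivator to hepatocytes, so B cells were not its target. WT mice (2 libraries) had doxycycline food for 7 days, and tetYAP mice had it for 3 days (YAP3d, 4 libraries) or 7 days (YAP7d, 3 libraries). All groups shared the transactivator and the drug, and the WT libraries match YAP7d in days of doxycycline but not YAP3d. Nothing in the labels said that libraries of a group came from separate mice, so a p-value here measures the spread between libraries, which may be technical.

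The tables held 63380159 UMIs, 4208862 of them in B cells. A B cell had a median of 2659 to 5092 UMIs by library. The shallowest cell of a library had between 822 and 4041 UMIs, the latter in YAP7d library 3, and 71.4% to 98.1% of the B cells of the other 8 libraries lay under that highest floor. YAP7d library 3 also stood apart in content: 30 of its 43 B cells (69.8%) held at least 10 UMIs of the markers of 1 other cell type, here called mixed cells, against 0 to 8.79% in the other libraries and 96 mixed cells in all. The main counts and several named genes are therefore also given without mixed cells. The cutoff of 10 UMIs was not scaled to depth, and the B cells of YAP7d library 3 were the deepest (median 5092 UMIs). Without mixed cells that library kept 13 B cells with 59744 UMIs. In all, 46 cell barcodes occurred in more than 1 library, 10 B cells carried such a barcode, and 0 barcodes were shared by B cells of 2 libraries. No doublet caller was run.

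MHC class II is the antigen-presenting programme of B cells, and its genes are set beside macrophages of the same libraries further on. Many class II promoters carry a Y box, an inverted CCAAT element bound by NF-Y. The reference held a promoter window for 8 of the 11 class II genes considered, and 4 of them had the letters CTGATTGG on either strand within 250 bases upstream of the start site, as did 3.83% of 32851 windows over all genes. The 150 bases immediately upstream of the start site are shown for these 4 (RefSeq, GRCm38.p6, mouse chromosome 17), with the Y box in capitals, because they let the shared element be seen in class II genes. Of these, H2-Eb2 was low in the B cells, with a UMI in 5.26% to 28.6% of them by library, against 94.3% to 100% for H2-Aa.
H2-Aa, chr17:34287824-34287973, minus strand: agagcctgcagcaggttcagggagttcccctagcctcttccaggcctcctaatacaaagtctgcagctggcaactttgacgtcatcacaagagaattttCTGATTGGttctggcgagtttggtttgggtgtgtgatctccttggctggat
H2-Eb1, chr17:34305717-34305866, plus strand: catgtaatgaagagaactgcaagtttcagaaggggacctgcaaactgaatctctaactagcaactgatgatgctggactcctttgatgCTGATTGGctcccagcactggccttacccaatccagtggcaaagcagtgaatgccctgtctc
H2-Eb2, chr17:34325525-34325674, plus strand: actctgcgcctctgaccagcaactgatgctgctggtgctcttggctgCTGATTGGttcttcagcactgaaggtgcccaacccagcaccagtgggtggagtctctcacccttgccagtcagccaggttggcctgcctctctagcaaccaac
H2-Oa, chr17:34092229-34092378, plus strand: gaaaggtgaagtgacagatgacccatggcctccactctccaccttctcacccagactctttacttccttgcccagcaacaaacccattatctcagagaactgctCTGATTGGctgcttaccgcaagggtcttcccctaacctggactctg
The box began 51 bases upstream of the start site in H2-Aa, the alpha chain of I-A, 62 in H2-Eb1, the beta chain of I-E, 103 in H2-Eb2, and 46 in H2-Oa, a chain of the H2-O modulator of peptide loading. A window without these letters says only that they were not in it, and a match is not a measured binding site.

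The cells just inside the gate looked less like B cells than the rest. Ebf1, the early B cell transcription factor that the gate did not use, had a UMI in 10.53% of the 19 cells with exactly 3 marker UMIs, in 56.3% of the 16 with 4 and in 90.0% of the 10 with 5. Just outside, 16.5% of the 79 cells with 2 marker UMIs had Ebf1. The exclusions also removed cells with Ebf1: 81.1% of the 190 cells dropped for Cd3e, Cd3d or Siglech carried it, as did 35.3% of the 68 dropped for C1q genes.

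Genes outside the gate matched the label. To compare shares of cells with a UMI across depths, each cell was thinned at random to 1000 UMIs, which left out 1 WT, 3 YAP3d and 0 YAP7d B cells as too shallow. T cells (at least 2 UMIs of Cd3e, Cd3d and Cd3g, none of the B cell genes, median 4213 to 5743 UMIs by library) gave the background. Ebf1 was found in 60.5% to 92.1% of thinned B cells by library and in at most 1.43% of T cells, and without thinning in 86.1% to 100% and at most 5.95%. Fcmr, the Fc receptor for IgM, was found in 32.6% to 51.9% of thinned B cells against at most 3.10% of T cells (62.8% to 88.6% and at most 8.81% unthinned). Ly6d, Pax5, Fcmr and Ebf1 each had their lowest share in YAP7d library 3.

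Markers from the lists of several B cell subsets were found in many of the cells. Ccr7, which leads lymphocytes to the T zone, was found in 33.3% to 71.0% of thinned B cells (69.7% to 88.6% unthinned) and in 3.49% to 21.2% of thinned T cells (10.3% to 48.1% unthinned). Fcer2a (CD23, a follicular marker) was found in 6.98% to 41.9% of thinned B cells (27.9% to 67.7% unthinned) and at most 0.952% of T cells. Of the marginal zone list, Mzb1, an endoplasmic reticulum chaperone, was found in 27.3% to 48.4% (60.5% to 83.9% unthinned) against at most 1.43% of T cells, and Plac8 in 29.6% to 69.8%, against up to 30.5% of T cells. Of the immature list, Cd24a was found in 14.7% to 38.7% (45.2% to 65.3% unthinned) and Vpreb3, a pre-B cell receptor protein, in 5.56% to 28.95% (21.1% to 61.1% unthinned), against at most 2.38% and 0.826% of thinned T cells. Cr2 (CD21), high on marginal zone cells, was found in 0 to 13.9% (2.33% to 28.9% unthinned) and in 0 of the thinned T cells. Cd9, a marker of marginal zone and B-1 cells, was found in 0 to 4.65% of B cells and 2.40% to 5.77% of T cells, which is background. Cd93 (immature cells), Cd5 (B-1a cells), Jchain (antibody-secreting cells) and Mki67 (cycling cells) were each found in at most 3.23% of the thinned B cells of any library. Unthinned, Mki67 was found in 0 to 9.30% of B cells and 1.19% to 17.8% of T cells. None of the 12 immunoglobulin constant genes looked for had a row in the tables used, so isotype and light chain use were not analysed here.

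The share of B cells did not differ between groups beyond the spread of the libraries. In WT, B cells made up 7.49% and 13.4% of the cells with at least 200 detected genes, the denominator of the shares here. The YAP3d shares were 13.5%, 7.01%, 8.29% and 23.6%, those of YAP7d were 5.51%, 11.7% and 2.34%, and the groups overlapped. The means were 10.45% ± 4.19 (SD, n = 2), 13.1% ± 7.56 (n = 4) and 6.52% ± 4.77 (n = 3). YAP7d minus WT was -3.93 percentage points (two-sided exact permutation test, p = 0.4, smallest possible 0.1), YAP3d minus WT was 2.67 points (exact p = 0.733, smallest possible 0.0667) and YAP7d minus YAP3d was -6.59 points (exact p = 0.286, smallest possible 0.0286). Over the 3 groups the exact permutation p was 0.456, or 0.989 adjusted over 3 measures, and all 9 pair tests had an adjusted exact p of 1. With B cells at any C1q UMI left out, YAP7d lay below WT in every library (-5.04 points, exact p = 0.1). It then also lay below every YAP3d library (-8.00 points, exact permutation p = 0.0571, or 0.0897 over 3 groups). The means were 7.73% in WT, 10.7% in YAP3d and 2.69% in YAP7d. This setting kept the removed cells in the denominator, so it can only lower a share. Without the 3 libraries of over 1000 cells (WT library 2, YAP3d library 4 and YAP7d library 3) YAP7d minus WT was 1.13 points, and YAP3d minus WT was -0.842 points without YAP3d library 4.

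Set against T cells alone, B cells were 27.7% and 35.8% of B plus T cells in WT, 30.4%, 20.4%, 25.4% and 58.9% in YAP3d, and 24.6%, 50.9% and 20.5% in YAP7d. The group means were 31.7%, 33.8% and 32.0%, and every group overlapped the others. YAP7d minus WT was 0.295 points, YAP3d minus WT 2.05 and YAP7d minus YAP3d -1.76 (exact permutation p = 1, 0.933 and 0.8286). The sign of all 3 differences depended on the settings. YAP7d minus WT was -10.3 points with B cells at any C1q UMI left out and -4.17 without mixed B cells. These settings removed B cells only and kept the T cells as they were, so each can only lower this share.

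The shares moved with the depth at which cells were kept. Counting only cells of at least 4041 UMIs, an alternative chosen after seeing the data, B cells were 1.04% and 4.67% of WT cells, 2.31%, 1.42%, 5.75% and 11.0% of YAP3d cells, and 1.27%, 0.316% and 2.34% of YAP7d cells. YAP3d library 4 was highest at either depth, and YAP7d library 3, lowest over all cells, was in the middle here. The median UMIs per B cell were 3041 and 3001.5 in WT, 3081.5, 3153, 3649 and 3343 in YAP3d, and 3214, 2659 and 5092 in YAP7d (exact permutation p = 0.765 over 3 groups).

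**Figure D1:**
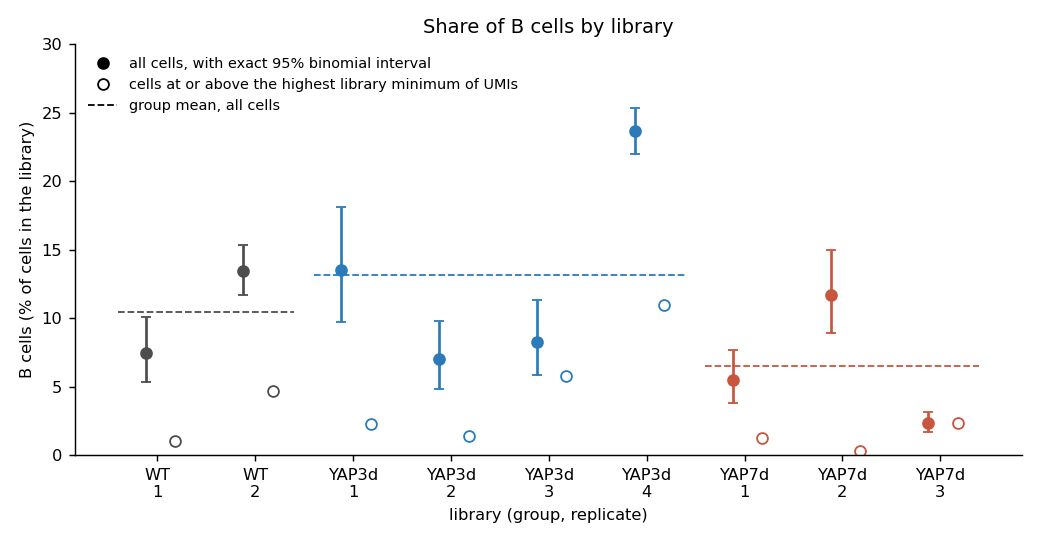
B cells as a percentage of the cells of each library (y axis) in the 9 libraries (x axis, coloured by group). Filled points count all cells, with exact 95% binomial intervals that cover counting error only, open circles count cells of at least 4041 UMIs, and dashed lines are group means. YAP3d library 4 was highest at 23.6%, YAP7d library 3 lowest at 2.34%, and the groups overlapped.

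Transcripts of other cell types in the B cells moved with the groups. The 21 macrophage, monocyte and neutrophil markers summed to 127 and 770 CPM (UMIs scaled to a fixed total of B cell UMIs per library) in WT, 131, 513, 178 and 1427 in YAP3d, and 1912, 2628 and 10115 in YAP7d, with 7 to 21 of the 21 markers above 0 in a library. Every YAP7d library lay above every other. Without mixed cells the sums were 127 and 687, then 122, 513, 178 and 814, then 444, 920 and 1473 CPM. Mixed cells were defined by these markers among others, so that leaving them out lowers these sums by construction. Single cells held much of it: 1 cell carried 285 of the 421 myeloid UMIs of YAP7d library 2, and 1 carried 766 of the 2717 of YAP7d library 3. In T cells the same sums were 731 and 1629, then 854, 806, 2057 and 3447, then 1754, 1675 and 3567 CPM.

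Endothelial markers ran the other way. These 10 genes summed to 169 and 916 CPM in WT, 122, 66.5, 178 and 1600 in YAP3d, and 16.3, 12.5 and 67.0 in YAP7d. In T cells they summed to 676 and 1522, then 67.3, 47.4, 353 and 1152, then 15.2, 24.2 and 44.5 CPM, so that in both cell types the YAP7d sums were below both WT sums. T and NK markers were at 31.2 to 392 CPM in B cells, against 5522 to 14335 CPM in T cells. The part of such transcripts in the comparisons below was not tested beyond leaving out mixed cells.

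**Figure D2:**
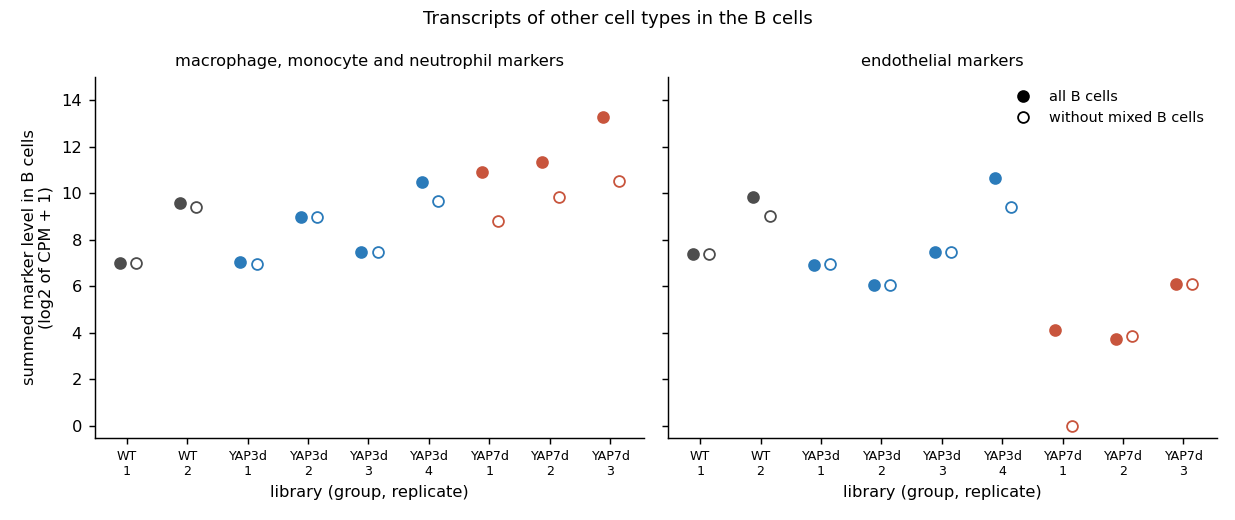
Summed level of myeloid markers (left) and endothelial markers (right) in the B cells of each library, as log2 of CPM plus 1 on the y axis. Filled points are all B cells and open points leave out mixed cells. On the left the 3 YAP7d libraries lie above the others (1912 to 10115 CPM), while the open points are lower by construction, and on the right they lie at 12.5 to 67.0 CPM, under both WT libraries.

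No gene passed the test within B cells. The UMIs of the B cells were summed per library and 2238 genes were tested with edgeR's quasi-likelihood test. After Benjamini-Hochberg adjustment edgeR called 0 genes (0% of genes) for YAP7d minus WT, 0 (0%) for YAP3d minus WT and 0 (0%) for YAP7d minus YAP3d, and the smallest adjusted p values were 0.133, 0.999 and 0.0768. At an unadjusted p under 0.05 there were 152, 20 and 178 genes. DESeq2 called 11, 0 and 15, the last with the gate gene C1qc among them, which leaves 14. Without mixed cells edgeR called 0 of 2058 genes in each comparison, with 112, 23 and 127 at an unadjusted p under 0.05. On simulated counts for YAP7d against WT the edgeR test recovered 83.5% of 200 genes given a log2 change of 2. The recovery of smaller changes, such as many of those below, is not given by this simulation. The genes below are described by their values, and none passed adjustment by edgeR. In such sums fewer cells of a state and less RNA per cell cannot be told apart.

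Of 32 genes of B cell receptor signalling, 27 were tested, and for YAP7d minus WT 0 had an unadjusted p under 0.05, where 3.04% of all genes were higher and 3.75% lower at that threshold. Their median log2 change was -0.21 beside 0.03 for all genes, and 7 of 27 were above 0, as were 52.8% of all genes. Bank1, a scaffold of receptor signalling, was at 628 and 451 CPM in WT (scaled by TMM, here and below unless stated), 511, 628, 495 and 444 in YAP3d, and 656, 545 and 267 in YAP7d. Cd37, a tetraspanin of B cells, was at 1063 and 1104, then 1013, 1189, 893 and 1077, then 1132, 817 and 875 CPM. Both genes overlapped across the groups. For YAP3d minus WT, where 0.402% of genes were higher and 0.492% lower at that threshold, 0 of the 27 were and the median was -0.02.

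The 24 tested B cell transcription factors had a median log2 change of -0.22 for YAP7d minus WT and 0 at an unadjusted p under 0.05. Ebf1 was at 2329 and 1530 CPM in WT, 2199, 1729, 2139 and 1776 in YAP3d, and 1834, 2100 and 1205 in YAP7d (log2 change -0.17 ± 0.25, SE). Klf2, which keeps lymphocytes quiescent and guides their traffic, was at 2667 and 3324 (WT), 3974, 3325, 2872 and 2370 (YAP3d), and 3415, 3046 and 1701 CPM (YAP7d). The lowest value of both was in YAP7d library 3, and without mixed cells the Ebf1 change was 0.03.

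Homing and follicular genes had the lowest median for YAP7d minus WT among the lists that were not markers of a cell type, at -0.35 over 16 tested genes, with 3 lower at an unadjusted p under 0.05 (3.75% of all genes were) and 5 lower in every YAP7d than every WT library (10.1% of all genes were lower and 8.89% higher in this way). Gpr183, the oxysterol receptor that positions B cells in the follicle, was at 406 and 347 CPM in WT, 395, 374, 371 and 368 in YAP3d, and 198, 172 and 199 in YAP7d. The 3 YAP7d values were the lowest and the other 6 lay close together. The log2 change was -0.97 ± 0.24 against WT (edgeR adjusted p = 0.185) and -0.99 ± 0.21 against YAP3d (edgeR adjusted p = 0.0934), and without mixed cells -0.91 and -0.98. In T cells Gpr183 was at 89.2 and 112, then 85.4, 115, 171 and 129, then 92.7, 133 and 111 CPM of library totals. The T cell change for YAP7d minus WT was 0.18 ± 0.31, and the difference of -1.13 ± 0.34 between the cell types did not pass edgeR's test (adjusted p = 0.306).

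Other homing genes had more overlap. Ccr7 was at 1179 and 865 CPM in WT, 1128, 870, 742 and 1187 in YAP3d, and 620, 753 and 399 in YAP7d (log2 change against WT -0.79 ± 0.30, or -0.49 without mixed cells). S1pr1, the receptor for exit from tissue, was at 222 and 162, then 106, 143, 159 and 146, then 135, 86.0 and 102 CPM (-0.80 ± 0.30, or -0.50 without mixed cells). Cxcr5, which leads B cells into follicles, was at 106 and 159, then 145, 154, 70.7 and 179, then 36.0, 86.0 and 92.3 CPM. All YAP7d values of these 3 genes lay below both WT values. For YAP7d minus YAP3d, where 3.8% of all genes were higher and 4.16% lower at an unadjusted p under 0.05, 4 of the 16 were lower (Gpr183, Cxcr5, Ccr7 and Fcer2a) and 0 higher, with a median of -0.30. In that comparison 1 of the 16 was lower in every YAP7d than every YAP3d library (3.71% of all genes were, and 3.57% were higher). For YAP3d minus WT 0 were at that threshold and the median was 0.03.

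Of 9 tested MHC class II genes 2 (Cd74 and H2-DMb2) were lower in YAP7d than WT at an unadjusted p under 0.05 (3.75% of all genes were). H2-Aa was at 6745 and 6402 CPM in WT, 4861, 7289, 6663 and 6674 in YAP3d, and 5456, 6415 and 6800 in YAP7d (log2 change for YAP7d minus WT -0.08 ± 0.17). H2-Ab1, its partner chain, was at 6340 and 5536, then 5256, 6276, 5886 and 6274, then 4844, 4924 and 5633 CPM (-0.21 ± 0.14). Both overlapped between the groups. Cd74, the invariant chain that fills the class II groove, was at 27658 and 28621 CPM in WT, 24227, 29189, 28332 and 27511 in YAP3d, and 22568, 24010 and 23344 in YAP7d. Its 3 YAP7d values were the lowest, with a log2 change of -0.27 ± 0.10 against WT (edgeR adjusted p = 0.586), and -0.09 without mixed cells. H2-DMb2, a chain of the H2-M peptide exchanger, was at 1469 and 1359 CPM in WT, 1022, 1255, 1220 and 1217 in YAP3d, and 962, 953 and 923 in YAP7d. Its YAP7d values were the lowest and its WT values the highest, with a log2 change of -0.58 ± 0.19 for YAP7d minus WT (edgeR adjusted p = 0.403), and -0.51 without mixed cells. The median over the 9 genes was -0.16. The 14 tested MHC class I genes had 0 at that threshold and a median of 0.01.

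The macrophages of the same libraries (at least 5 UMIs of C1q genes, no UMI of the B cell genes or of Cd3e or Cd3d) varied more. H2-Aa was at 3481 and 2507 CPM of library totals in WT macrophages, 2297, 2019, 933 and 2579 in YAP3d, and 737, 828 and 2262 in YAP7d. On the same scale B cells were at 5896 and 5288, then 4391, 6287, 5833 and 5617, then 4959, 5588 and 5208. In macrophages every YAP7d value lay under both WT values, and YAP7d library 3 stood apart from the other 2. In a fit with each library as a block the YAP7d minus WT change was higher in B cells than in macrophages by 1.33 ± 0.47 log2 for H2-Aa, 1.35 ± 0.50 for H2-Ab1, 1.29 ± 0.46 for H2-Eb1 and 1.20 ± 0.46 for Cd74. None of these passed edgeR's adjustment over 5352 genes (adjusted p = 0.385, 0.416, 0.390 and 0.445), and without mixed cells the differences were 1.45, 1.45, 1.38 and 1.34, again not called. YAP3d library 1, with 8 macrophages, was left out of that fit.

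**Figure D3:**
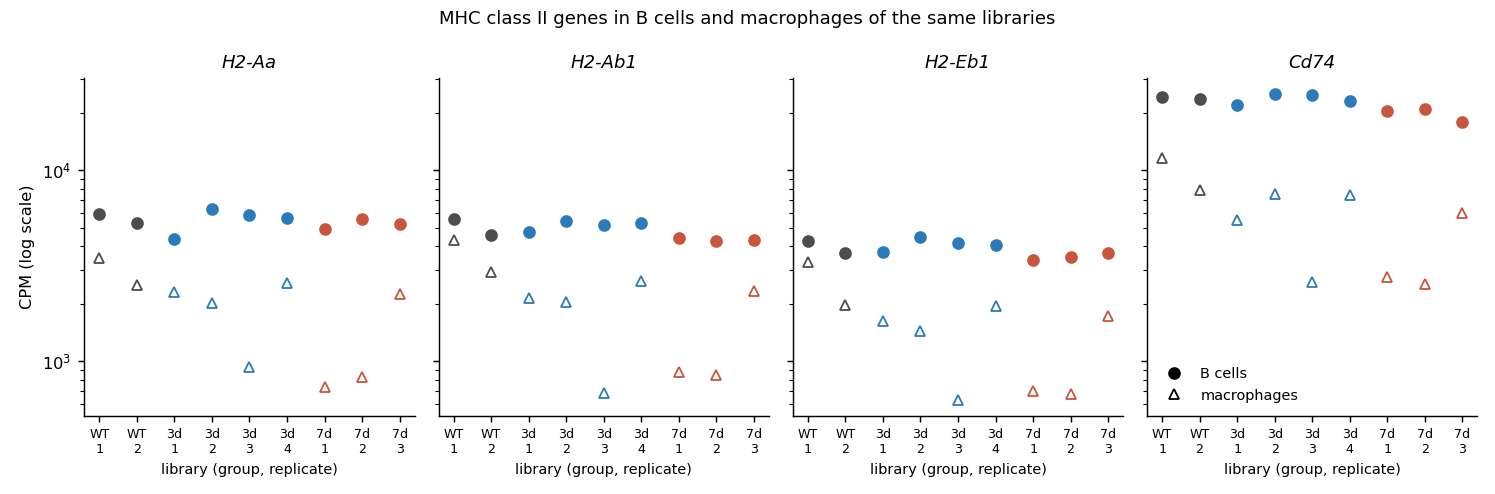
CPM of library totals (log axis) of H2-Aa, H2-Ab1, H2-Eb1 and Cd74 in B cells (filled circles) and macrophages (open triangles) of each library, coloured by group. H2-Aa ranged from 4391 to 6287 CPM in B cells and from 737 to 3481 in macrophages.

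Immediate early genes, which tissue dissociation also induces, had 3 of 20 tested members lower at an unadjusted p under 0.05 for YAP7d minus WT (3.75% of all genes were) and 4 of 20 for YAP7d minus YAP3d (4.16% of all genes), and 0 higher in both. Fos, an AP-1 subunit, was at 1517 and 1725 CPM in WT, 1929, 1321, 1370 and 1182 in YAP3d, and 926, 1018 and 685 in YAP7d. The 3 YAP7d values were the lowest, and the log2 change against WT was -0.90 ± 0.24 (edgeR adjusted p = 0.266), or -1.10 without mixed cells. Jund was at 1933 and 2607, then 2006, 1740, 2289 and 2342, then 1195, 1333 and 1745 CPM (-0.67 ± 0.22, or -0.54 without mixed cells). Junb was at 4088 and 4332, then 4986, 4140, 3897 and 3970, then 3766, 4336 and 2707 CPM, and overlapped. The YAP7d minus WT change of Fos was -1.02 ± 0.36 in T cells and -0.85 ± 0.48 in macrophages, and its difference from B cells was not called in either.

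Heat shock genes differed between libraries of 1 group. For YAP7d minus YAP3d 11 of 11 tested genes were below 0 (49.9% of all genes were), with 5 at an unadjusted p under 0.05 (4.16% of all genes were lower at that threshold) and a median of -0.87. For YAP7d minus WT the median was -0.34, and for YAP3d minus WT it was 0.43 with 1 gene (Dnaja1) higher. Hspa8, a constitutive chaperone, was at 1537 and 2440 CPM in WT, 2662, 2389, 3473 and 1820 in YAP3d, and 2004, 1183 and 1434 in YAP7d. Hspa1a, the stress-induced HSP70, was at 19.3 and 699, then 183, 44.0, 1069 and 172, then 413, 0 and 4.86 CPM. T cells ranked the libraries in the same order for Hspa1a, at 87.1 and 799.5, then 245.9, 147, 818 and 157, then 345, 0 and 2.84 CPM of library totals, and within each group the libraries were far apart.

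Activation and NF-kB genes had 1 of 17 higher (Nfkbia) and 1 lower (Ccr7) for YAP7d minus WT at an unadjusted p under 0.05, where 3.04% of all genes were higher and 3.75% lower. Nfkbia, the inhibitor of NF-kB, was at 387 and 402 CPM in WT, 492, 440, 336 and 363 in YAP3d, and 665, 430 and 710 in YAP7d (log2 change 0.61 ± 0.28, or 0.83 without mixed cells). All YAP7d values lay above both WT values. Of 26 interferon response genes 8 were tested, with 0 at that threshold and a median of -0.09. Of 30 proliferation genes 7 were tested, 1 higher (Hmgb2) and 1 lower (Tubb4b). Respiratory chain genes (27 tested, median 0.03), survival genes (7, -0.04) and glycolysis genes (8, 0.29) had at most 1 such member, and the 11 germinal centre genes were all too low to test.

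Some values rested on mixed cells. Gapdh, a glycolytic enzyme, was at 251 and 487 CPM in WT, 386, 429, 318 and 597 in YAP3d, and 467, 444 and 1060 in YAP7d, and its log2 change for YAP7d minus WT was 0.79 ± 0.41, or 0.33 without mixed cells. Plac8, which myeloid cells also express, was at 618 and 1322, then 492, 727, 636 and 1164, then 1744, 831 and 3076 CPM, and its change went from 0.93 to -0.24. The 5 tested monocyte and neutrophil markers had a median of 3.17 with 4 higher at an unadjusted p under 0.05 (3.04% of all genes were), and the 5 tested endothelial markers had a median of -3.46 with 4 lower (3.75% of all genes were).

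**Figure D4:**
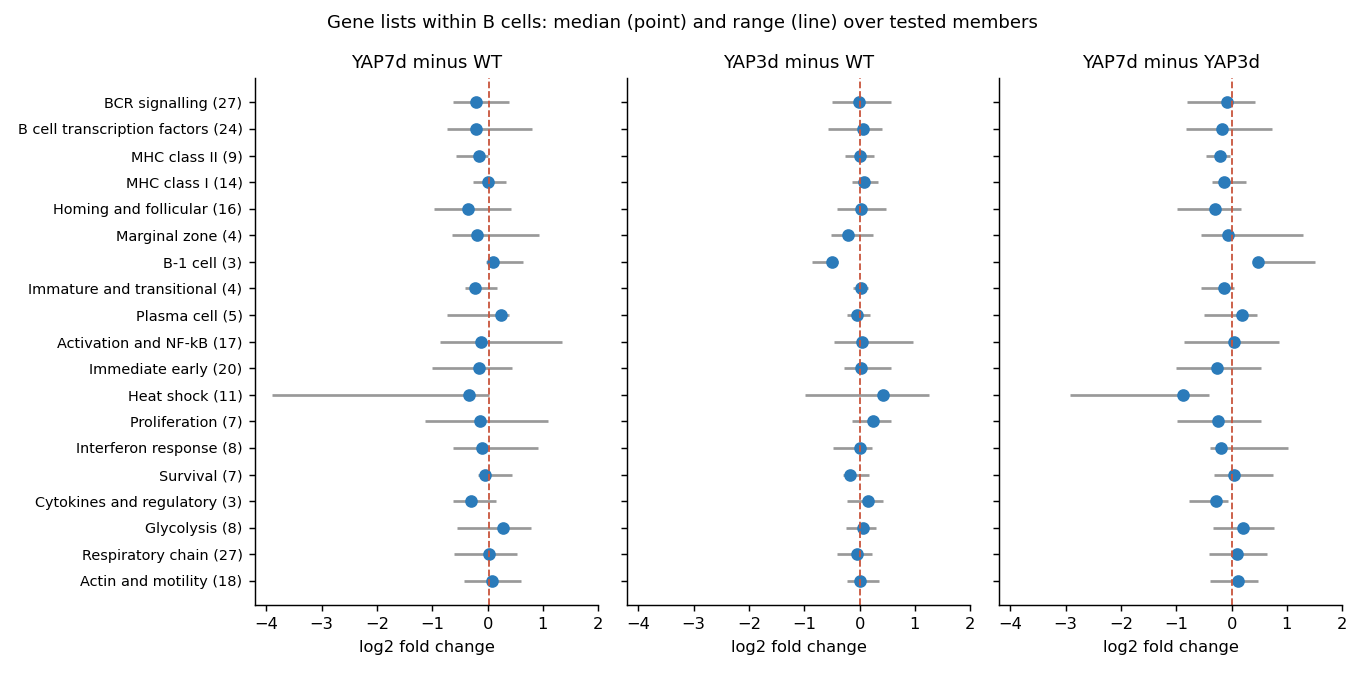
Median (point) and range (line) of the log2 change of the tested members of 19 gene lists within B cells, in the 3 comparisons. Numbers in brackets are tested members and the dashed line is the median of all genes tested. The homing list has medians of -0.35 and -0.30 in the comparisons that hold YAP7d and 0.03 for YAP3d minus WT, and the heat shock list -0.34, -0.87 and 0.43 in the same order.

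With no gene called by edgeR, the 10 genes of smallest unadjusted p whose groups did not overlap are given for each comparison. For YAP7d minus WT 4 carried names of ribosomal protein genes or their copies (Rpl6l, Rps27rt, Rpl36-ps3 and Rpl13-ps3) and 3 were rows of predicted genes. Rpl6l was at 705 and 793 CPM in WT, 540, 495, 672 and 640 in YAP3d, and 261, 208 and 335 in YAP7d (log2 change -1.48 ± 0.25, edgeR adjusted p = 0.133, or -1.50 without mixed cells). Rps27rt was at 3170 and 4137, then 3694, 1905, 3826 and 3206, then 1806, 1390 and 1414 CPM (-1.26 ± 0.26), and Gm11808 at 754 and 1243, then 646, 628, 884 and 737, then 395, 272 and 428 CPM (-1.46 ± 0.28). All YAP7d values of these rows were the lowest. Gm9844 (-2.18), Gm8186 (-2.21), Rpl36-ps3 (-1.67), Rpl13-ps3 (-1.38) and Polr2l, a subunit shared by the RNA polymerases (-2.19), were the others with lower values. DESeq2 called 7 of these 10 genes (Rpl6l, Rps27rt, Gm11808, Gm9844, Gm8186, Rpl36-ps3 and Rpl13-ps3), with adjusted p values of 0.00318 for Rpl6l and Gm11808 and 0.00494 for Rps27rt. Ribosomal copies can share reads with near-identical genes, so their counts are uncertain.

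Rows named as copies and the ribosomal protein genes themselves had different medians. Of the rows named as ribosomal pseudogenes 8 of 8 tested were below 0 in each comparison, with medians of -1.34 for YAP7d minus WT, -0.42 for YAP3d minus WT and -0.94 for YAP7d minus YAP3d, where 47.2%, 48.1% and 49.9% of all genes were below 0. Of the 80 tested ribosomal protein genes 23, 68 and 12 were below 0, with medians of 0.10, -0.10 and 0.16. This grouping was chosen after the values were seen. The rows had negative changes in other cells of the same libraries too: the YAP7d minus WT change of Gm11808 was -1.42 ± 0.29 in T cells and -1.02 ± 0.44 in macrophages, and that of Rps27rt -1.22 ± 0.35 and -1.21 ± 0.42. The difference from B cells was not called for either row. Gm10709, also singled out after its values were seen, split the libraries across the groups. In B cells it was at 8.45 and 15.5 CPM of library totals in WT, 418, 494, 7.74 and 19.3 in YAP3d, and 449, 418 and 637 in YAP7d, and T cells were split alike, at 6.37 and 12.5, then 412, 488, 4.39 and 9.76, then 436, 512 and 766 CPM.

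The genes with higher values in YAP7d among these 10 were Ccl6 and Ccl9. Ccl6, a chemokine of macrophages and neutrophils, was at 9.66 and 37.6 CPM in WT, 0, 22, 8.84 and 50.3 in YAP3d, and 189, 186 and 515 in YAP7d, and Ccl9 had the same pattern at 144, 136 and 277 CPM in YAP7d against 0 to 29.2 elsewhere. For YAP7d minus YAP3d the 10 genes were Ccl6 (log2 change 3.16), Chil3 (5.92), Ccl9 (3.34), Msrb1 (2.36), Lst1 (2.59), Tyrobp (2.33), Rpl6l (-1.13), Rpl36-ps3 (-1.49), Rpl13-ps3 (-1.32) and Gpr183 (-0.99). DESeq2 called 6 of them (Ccl6, Msrb1, Lst1, Rpl6l, Rpl36-ps3 and Rpl13-ps3). Without mixed cells Tyrobp, a signalling adaptor of myeloid and NK cells, was at 0.67, and Ccl6, Chil3, Ccl9, Msrb1 and Lst1 no longer entered the test.

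Tagap and Wdr89 were also among the genes that DESeq2 and not edgeR called lower for YAP7d minus YAP3d, and were named after their values were seen. Tagap, a GTPase-activating protein of activated lymphocytes, was at 145 and 161 CPM in WT, 174, 264, 274 and 117 in YAP3d, and 17.98, 78.8 and 43.7 in YAP7d (edgeR log2 change -2.01 ± 0.44, adjusted p = 0.0934, or -1.94 without mixed cells). Wdr89 was at 1256 and 1074, then 1427, 738, 1529 and 1357, then 719, 502 and 680 CPM (-1.0 ± 0.25). Both were lower in every YAP7d library than in any other by this scaling. On library totals this did not hold for Wdr89, at 654 CPM in YAP7d library 1 and 636 in YAP3d library 2. The Wdr89 change was -0.96 ± 0.30 in T cells, and the Tagap change -0.40 ± 0.25, whose difference of -1.56 from B cells was not called (edgeR adjusted p = 0.186).

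For YAP3d minus WT the 10 genes were Gm9844 (-1.20), Usf2 (-0.72), Gsk3b (1.07), Pdcd4 (-0.64), Fam32a (0.73), Pcnp (0.94), Timm8b (-0.85), Polr2l (-0.90), D1Ertd622e (0.96) and Snn (-0.65), all at an edgeR adjusted p of 0.999. Pdcd4, an inhibitor of translation, was at 290 and 229 CPM in WT, 203, 154, 133 and 165 in YAP3d, and 261, 315 and 214 in YAP7d. Its 4 YAP3d values lay under all others. Groups did not overlap for 3.26% of genes higher and 4.42% lower in YAP3d than WT.

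B cells and T cells of the same libraries were then compared in 1 edgeR fit with each library as a block. The change differed for 9 of 6892 genes for YAP7d minus WT (all higher in B cells, 0.131% of genes, with 0% lower), for 0 (0%, with 214 genes at an unadjusted p under 0.05) for YAP3d minus WT, and for 38 for YAP7d minus YAP3d (31 higher, 0.45%, and 7 lower, 0.102%). For the first of these, 8 of the 9 were Lyz2, Tyrobp, Fcer1g, Cst3, Cebpb, Ifitm2, Ifitm3 and Ms4a6c, mostly genes of myeloid cells. Of the 9 called genes 9 were also tested within B cells alone, and of the 38, 25, while the other 13 were too low there and passed the filter only in the joint fit. Of the genes tested within B cells, those also called without mixed cells were Fcgr2b for YAP7d minus WT and Tuba1b, Btg2, Dusp1 and Ptpn22 for YAP7d minus YAP3d, and these are described next. With no library block edgeR called 0 genes in each comparison, with 228, 97 and 307 at an unadjusted p under 0.05. DESeq2 was not run on this difference.

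Tuba1b, a tubulin made in quantity by dividing cells, changed differently in B cells and T cells between 3 and 7 days of induction. It was at 141.5 to 383 CPM of library totals in B cells and, in T cells, at 421 and 400.4 in WT, 254, 315, 344 and 296 in YAP3d, and 806, 600.1 and 416 in YAP7d. YAP7d T cells lay above YAP3d T cells and overlapped WT T cells. The YAP7d minus YAP3d change was lower in B cells than in T cells by a log2 difference of -1.70 ± 0.26 (edgeR adjusted p = 0.000364), and it remained called without mixed cells.

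Of the proliferation list 28 genes entered this fit, but 7 were high enough to be tested in B cells alone, so most entered through the T cells. Of those 7, 3 were called lower in B cells (Tuba1b, Tubb4b and Tubb5) and 0 higher, and without mixed cells 1 (Tuba1b) remained called, with an edgeR adjusted p of 0.207 for Tubb4b and 0.134 for Tubb5. The median YAP7d minus YAP3d change over the same 7 genes was 0.97 in T cells and -0.25 in B cells. For YAP7d minus WT 0 of the 7 were called by edgeR, with medians of 0.60 and -0.14.

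Stmn1, Hist1h2ap and Rrm2 were too low in B cells to be tested there and entered the fit through the T cells, so their levels are given without a test. Stmn1, a microtubule regulator high in dividing cells, was at 0 and 25.4 CPM of library totals in WT B cells, 43.6, 19.0, 23.2 and 60.4 in YAP3d, and 8.17, 31.2 and 37.2 in YAP7d, from 0 to 18 UMIs in 8 of the libraries. In T cells it was at 168 and 138, then 7.77, 146, 57.0 and 48.8, then 565, 310 and 214 CPM, with the 3 YAP7d values highest. Hist1h2ap, a replication-dependent histone gene, was at 7.45 to 76.3 CPM in B cells, from 1 to 6 UMIs in 7 libraries. In T cells it was at 29.7 and 250.3 in WT, 5.18, 60.95, 2.19 and 17.98 in YAP3d, and 146, 379 and 117 in YAP7d, so that YAP7d overlapped WT. Rrm2, the ribonucleotide reductase subunit made in S phase, had 0 or 1 UMI in the B cells of 8 libraries and 22 in those of YAP3d library 4.

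Btg2, Dusp1 and Ptpn22, which restrain proliferation, MAP kinases and antigen receptor signals, differed in the other direction. Btg2 was at 776 and 679 CPM of library totals in WT T cells, 1147, 940, 829 and 728 in YAP3d, and 451, 463 and 465 in YAP7d. In B cells it was at 752 and 566, then 915, 598, 665 and 558, then 972, 837 and 581. The YAP7d values were the lowest in T cells and overlapped the other groups in B cells, a difference of 1.13 ± 0.21 for YAP7d minus YAP3d (edgeR adjusted p = 0.0055). Dusp1 in T cells was at 635 and 927, then 1025, 625, 803 and 714, then 459, 342 and 380 CPM, and in B cells at 414 and 432, then 566, 304, 410.0 and 367, then 1029, 531 and 257. The YAP7d B cell values ran from above to below those of YAP3d, while in T cells they were the lowest. Dusp1 differed by 1.35 ± 0.28 (edgeR adjusted p = 0.0153) and Ptpn22 by 1.33 ± 0.30 (edgeR adjusted p = 0.0239). Ptpn22 in B cells was at 127 and 45.2, then 78.4, 76.0, 92.8 and 61.7, then 123, 181 and 130 CPM, with every YAP7d value above every YAP3d value, but within B cells alone it did not pass (edgeR adjusted p = 0.304).

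Fcgr2b, the inhibitory Fc receptor of B cells that sinusoidal endothelium also carries, was the gene called for YAP7d minus WT without mixed cells. In B cells it was at 59.1 and 136 CPM of library totals in WT, 52.3, 47.5, 85.1 and 228 in YAP3d, and 81.7, 81.2 and 55.8 in YAP7d, and in T cells at 108 and 183, then 10.4, 3.39, 43.9 and 160, then 6.08, 4.03 and 13.3. B cells overlapped between the groups while YAP7d T cells lay below WT T cells, a difference of 3.29 ± 0.59 (edgeR adjusted p = 0.00713). The endothelial markers of the T cells moved alongside it (15.2 to 44.5 CPM in YAP7d against 676 and 1522 in WT), and their part in this result was not tested.

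**Figure D5:**
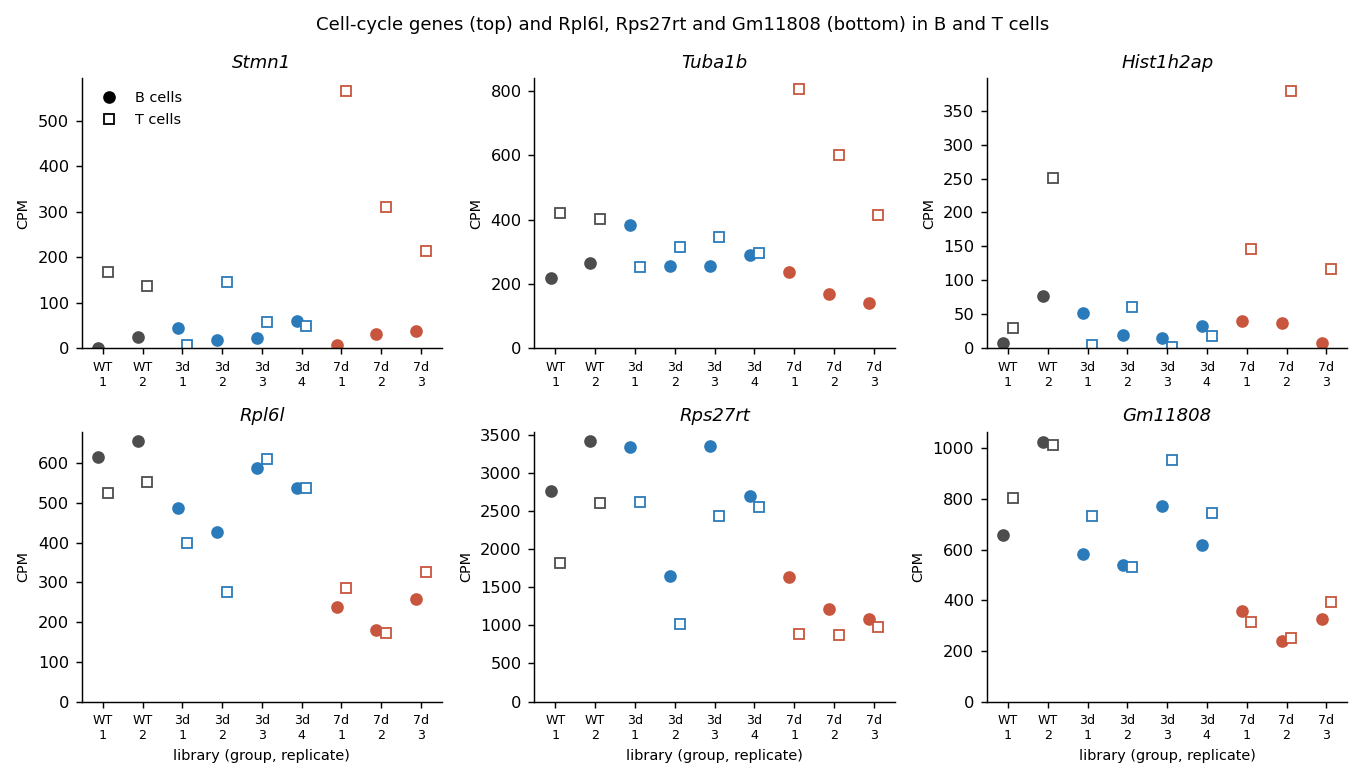
CPM of library totals in B cells (filled circles) and T cells (open squares) of each library for Stmn1, Tuba1b and Hist1h2ap (top) and for Rpl6l, Rps27rt and Gm11808 (bottom), coloured by group. For the top genes the 3 YAP7d T cell values lie above every B cell value. So do those of WT T cells for Tuba1b (421 and 400) and Stmn1 (168 and 138). The same holds for T cells of YAP3d library 2 for Stmn1 (146) and of WT library 2 for Hist1h2ap (250.3). For the bottom rows the YAP7d values lie under the WT values in both cell types.

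Against macrophages the change differed for 4 of 5352 genes for YAP7d minus WT (3 higher in B cells, 0.0561%, and 1 lower, 0.0187%), 0 (0%, with 157 at an unadjusted p under 0.05 by edgeR) for YAP3d minus WT and 4 for YAP7d minus YAP3d (2 each way, 0.0374%). Of these, 1 of the first 4 (Lyz2, higher in B cells) and 0 of the second 4 were also tested within B cells alone. The others passed the filter only in the joint fit and are not described, and Lyz2, a myeloid gene, was not called without mixed cells. Leaving out mixed cells gave 11 called genes for YAP7d minus WT, 1 of them among the first 4. It gave 1 for YAP7d minus YAP3d, with 0 shared, so these calls depended on the mixed cells.

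A few B cells stood out by S100a6, a calcium-binding protein. With mixed cells left out and cells thinned to 1000 UMIs, those with at least 3 S100a6 UMIs were 8 of 182 in WT library 2 (4.40%, exact 95% binomial interval 1.92% to 8.48%), 6 of 550 in YAP3d library 4 (1.09%, 0.401% to 2.36%), 1 of 34 in YAP3d library 1 and 0 in the other 6, whose 13 to 53 cells allow upper limits of 6.72% to 24.7%. The cells were chosen on S100a6 after the data were seen, and what follows is a description. In WT library 2 they held a mean of 7.50 Crip1 UMIs against 0.939 in cells without S100a6, and in YAP3d library 4 a mean of 5 against 0.956. Plac8 was at 1.88 against 0.561 and 2 against 0.71 UMIs, Ccr7 at 0 against 1.01 and 0.500 against 1.31, and Cd74 at 16.3 against 26.5 and 12.2 against 26.4. Ebf1 was at a mean of 0.500 against 1.52 and 1.17 against 1.96 UMIs, and found in 37.5% against 79.9% and 83.3% against 82.3% of cells. Mef2c was at 0.125 against 0.787 and 0.333 against 0.775. The cells with S100a6 were deeper before thinning, with medians of 6591 against 2849 UMIs and 6984 against 3228, and Cd5 had no UMI in them.

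Yap1 gave 4 UMIs in all B cells (0.95 CPM), 7 in T cells and 39 in macrophages. The B cell UMIs were 3 in WT library 2 and 1 in YAP3d library 1, so a difference between groups was not detectable at this depth.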

How the data were processed

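Droplet single-cell RNA libraries of mouse liver cells (9 libraries) were read from UMI counts per gene and cell that the authors deposited, unnormalized (raw counts). Per the labels and methods, the authors ran Cell Ranger against mm10 and used Seurat 2. The methods give 3′ v2 kits for these whole-liver libraries, while the labels name v2 and v3 for the series. Counting error is the only error that binomial intervals cover.

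B cells, T cells and macrophages were gated as stated, and the members and gene lists were chosen with earlier results of these data known. UMIs were summed per library (at least 10 cells) and tested with edgeR 4.0.16 (limma 3.58.1, R 4.3.3; filterByExpr, TMM, quasi-likelihood, all 3 groups, Benjamini-Hochberg at 0.05), with DESeq2 1.42.0 as an alternative. Differences between cell types were fitted with the library as a block. Shares used exact permutation tests (scipy 1.17.1). Tests were first run on simulated counts. Library totals were 1314878 to 25056881 UMIs.

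Named were genes called at an adjusted p under 0.05 or, where fewer than 10, the 10 of smallest unadjusted p with a mean of at least 50 CPM in a group and no overlap between the groups, plus the called and highest members of each list. Other genes were named after their values were seen.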

Additional observations from a re-analysis of the deposited data

Results flagged for a closer look

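In groups of 4 libraries, 11 of 102 values tested had 1 YAP3d library far from the other 3, where chance flags about 1 in 20. The 102 values come from the same libraries and are not independent. In YAP3d library 4 the B cells held 125 CPM of dendritic cell markers (0 to 8.71 in the others), 1600 CPM of endothelial markers (66.5 to 178), 29.2 CPM of Ccl9 and 19.2 CPM of Chil3 (both 0 in the others), 718 CPM of Vim (318 to 352) and 14800 CPM of Tmsb4x (10100 to 10700). This library held 2481736 B cell UMIs against 105290 to 129273 in the other 3, where a value of 0 is near the limit of detection. In YAP3d library 1 they held 183 CPM of erythroid markers (9.5 to 30.9), 347 CPM of Rpl36-ps3 (209 to 223), 241 CPM of Gsk3b (96.7 to 115), 174 CPM of Cr2 (53.6 to 70.7) and 743 CPM of Fcmr (822 to 838).

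The change between groups differed between B cells and T cells for 9 genes (YAP7d minus WT) and 38 genes (YAP7d minus YAP3d), and between B cells and macrophages for 4 and 4, by edgeR's test of the difference itself. Of named genes, the log2 difference between B cells and T cells for YAP7d minus WT was 3.29 for Fcgr2b and 2.76 for Tyrobp. For YAP7d minus YAP3d it was -1.70 for Tuba1b, -1.58 for Tubb4b, -1.01 for Tubb5, 1.13 for Btg2 and 1.35 for Dusp1. In the same comparison the myeloid genes Chil3 (3.50), Tyrobp (2.19), Ccl6 (2.15), Msrb1 (2.02) and Lst1 (2.34) differed too, and none of these 5 was called without mixed cells, nor were Tubb4b and Tubb5. Of these counts 9 of 9, 25 of 38, 1 of 4 and 0 of 4 genes were also high enough to be tested within B cells alone, and the genes named here are among them.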

How the results depend on the processing

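The count of genes called within B cells (0 in each comparison by edgeR) depended on the test. DESeq2 called 11 for YAP7d minus WT and 15 for YAP7d minus YAP3d. With no filter on low counts edgeR called 113, 3 and 166 genes for YAP7d minus WT, YAP3d minus WT and YAP7d minus YAP3d. With only the 2 groups compared it called 4 for YAP7d minus WT, with cells thinned to 1000 UMIs 1, and with cells holding a defining marker of another type left out, which also removed YAP7d library 3 whole, 15, and 2 for YAP7d minus YAP3d, where a marker threshold of 5 gave 4. The replicate block gave 31, 1 and 42, but the labels do not say what the replicate numbers stand for. Same-numbered libraries correlated between -0.362 and 0.235. With 2 WT libraries, the correlations of WT library 1 are those of WT library 2 with the sign turned. WT library 2 correlated at 0.54 with YAP3d library 4 and 0.457 with YAP7d library 3, and these last 2 at 0.595. Whether libraries were handled together was not tested. Leaving out 1 library gave 0 to 5, 0 to 0 and 0 to 18, with 5 and 18 without YAP3d library 4, 10 (YAP7d minus YAP3d) without YAP7d library 2, and 2 without YAP7d library 1 (YAP7d minus YAP3d) or 3 (YAP7d minus WT). The other settings gave 0.

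For the difference between B cells and T cells (9, 0 and 38 genes), no library block gave 0 and 0 where there were calls, no filter 32, 9 and 83, mixed cells left out 1 and 6, and leaving out 1 library 3 to 42, 0 to 7 and 20 to 52. YAP7d minus WT had 3 calls without WT library 2 and 42 without YAP3d library 4. Against macrophages (4, 0 and 4), no library block gave 0 and 0, no filter 33, 1 and 24, mixed cells left out 11 and 1, and leaving out 1 library 0 to 21, 0 to 0 and 0 to 31.

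The share of B cells among all cells ranged from -6.9 to -0.963 points (YAP7d minus WT), -0.842 to 5.63 (YAP3d minus WT) and -9.19 to -3.09 (YAP7d minus YAP3d) with 1 library left out, and YAP3d minus WT was -0.301 without WT library 1. Among B plus T cells the ranges were -9.17 to 6.06, -6.33 to 6.51 and -11.2 to 6.63, and of the UMIs per B cell -84.8 to 1130, 171 to 360 and -370 to 846. Signs turned with the libraries of over 1000 cells left out (1.13 for the share among all cells, YAP7d minus WT, and -2.27 and 12.4 among B plus T cells for YAP3d minus WT and YAP7d minus YAP3d), with cells thinned before the gate (-0.164 and 1.5 for these last 2), and for YAP7d minus WT among B plus T cells with a marker threshold of 5 (-0.322), C1q at 0 (-10.3) or mixed cells left out (-4.17). The last 2 of these settings removed B cells only, with the T cells kept. The cause of the turned signs was not tested. Leaving out mixed cells or libraries of over 1000 cells, and cutting cells at a library's UMI minimum, were chosen after seeing the data.

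Planned light chain and isotype results were not run because the tables used here hold no rows for those genes. List medians moved beyond the spread in 9, 7 and 11 of 437 pairs of list and setting, and single genes in 70 of 2090, 40 of 2085 and 47 of 2089. With 31 to 54 B cells in most libraries, low genes and small changes were beyond this depth.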
